A study of Rattus norvegicus with 6 samples.

Results

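Described here are 10 genes that make, use or recycle glutathione or defend cells against oxidants: Gclc, Gclm, Gss, Gsr, Ggt1, Gstm5, Nqo1, Hmox1, Txnrd1 and Slc7a11. They were found by gene name among the 35561 distinct names of a rat array, and 15 of its 41012 probes carried one of the names. The genes were put together because Gclc rose and Gstm5 fell on the Cy/+ arrays. The members' values on those arrays, and the differences between Cy/Cy and Cy/+, are therefore given as a description with no test.

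Glutathione is a tripeptide that donates electrons to detoxifying enzymes. Glutamate-cysteine ligase joins glutamate to cysteine in the slow step of its synthesis, glutathione synthetase adds glycine, and glutathione reductase turns the oxidised form back. The transcription factor Nrf2 (Nfe2l2), held down by Keap1, is known to switch on many genes of this group through antioxidant response elements in DNA. In the kidney, proximal tubule cells take apart filtered glutathione at the brush border with gamma-glutamyltransferase and build it anew from the amino acids.

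The samples were pools of left kidney RNA of the Han:SPRD rat, a strain in which the Cy mutation, a missense change in Anks6, causes polycystic kidney disease. Homozygous (Cy/Cy) and heterozygous (Cy/+) rats and rats labelled wild type (+/+) were each measured at 7 and at 3 days of age, with 1 array per genotype and age. On every array the named pool carried Cy5 and a +/+ pool of the same age carried Cy3. Dyes were not swapped, so a probe's dye effect and a difference of a mutant pool from its reference cannot be told apart. The number of animals in a pool is not given, nor whether pools were made separately. The p-values therefore reflect the scatter of these arrays alone, part of which may be technical. The arrays of a genotype differ in age and slide. The scatter behind its SE and p-values therefore includes the difference between ages. Values are log2 ratios of Cy5 over Cy3, so that 1 is a doubling, unless a normalized signal is named. In bulk RNA, fewer cells of a type and less RNA per cell cannot be told apart.

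The arrays labelled +/+ went against their label and are kept apart. By the labels both of their channels hold +/+ kidney RNA, yet all 18 measured markers of kidney tubule and podocyte were lower in Cy5 and all 16 measured markers of liver and skeletal muscle were higher (limma, adjusted p under 0.05). Over all probes 18.4% passed as lower and 26.6% as higher on these arrays. The median ratio was -3.21 at 7 days and -3.68 at 3 days over 8 proximal tubule markers, and 4.48 and 4.93 over 10 liver markers. The standard deviation of all ratios was 0.939 and 1.1 there. It was 0.156 and 0.174 on the Cy/Cy arrays and 0.235 and 0.317 on the Cy/+ arrays, at 7 and 3 days. No result on Cy/Cy or Cy/+ below uses the arrays labelled +/+, with 2 exceptions. They count towards the choice of a gene's brightest probe and towards the filter on dim probes. On the mutant arrays all 8 proximal tubule markers passed that filter and were well above background in both channels.

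Gclc encodes the catalytic subunit of glutamate-cysteine ligase. Its probe, shown because the Gclc values rest on it alone, maps to chr8:82780716-82780775 of build rn3, in ascending order of coordinates.
Gclc: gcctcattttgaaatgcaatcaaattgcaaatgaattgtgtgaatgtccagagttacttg
In Cy/Cy kidneys the normalized Gclc signal was 1023 at 7 days and 875 at 3 days, against 630 and 686 in the +/+ reference on the same arrays. In Cy/+ kidneys it was 1965 at 7 days and 1763 at 3 days, against 623 and 499 in the reference. The pools thus stood in 1 order at both ages, Cy/+ above Cy/Cy above the reference. The log2 ratios were 0.70 at 7 days and 0.35 at 3 days in Cy/Cy, and 1.66 and 1.82 in Cy/+.

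For means in Cy/Cy and Cy/+, the SE and interval come from a spread shared by all 4 mutant arrays. The Cy/+ arrays, from which the members were chosen, are among them. The mean of Gclc in Cy/Cy was 0.52 ± 0.10 (SE, n = 2 arrays), a 1.44-fold higher level than in the +/+ reference, with a 95% interval of 0.28 to 0.77. It did not pass the limma test after Benjamini-Hochberg adjustment (adjusted p = 0.371, unadjusted p = 0.00163). In that comparison 0 of 14 member probes passed, as did 2 of 30916 probes on the array (0.00647%). At an unadjusted p under 0.05 the counts were 5 of 14 member probes and 8.65% of all probes. With age as a block 15 probes of the array passed, and without either Cy/+ array 72 did. With median centring in place of loess, which raised the median of all probes by 0.165, Gclc in Cy/Cy was 0.83 (limma, adjusted p = 0.000997). In that setting 13257 of 30916 probes passed in Cy/Cy, 76.5% of them higher. The 3-day reference signal of Gclc was 686 on the Cy/Cy array and 499 on the Cy/+ array. Part of the 3-day difference between the genotypes therefore lies in the reference channel. Cy/Cy minus Cy/+ for Gclc was -0.96 at 7 days and -1.47 at 3 days, so the homozygous pools lay closer to the reference than the heterozygous ones at both ages. The same held over the array. Probes that differed 2-fold or more numbered 18 and 29 in Cy/Cy at 7 and 3 days, and 120 and 282 in Cy/+. Among all probes on the Cy/+ arrays Gclc ranked 5 of 30912 from the top at 7 days and 65 of 30903 at 3 days. Gclc was picked for its rise on those arrays, so a high rank there was given in advance.

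**Figure D1:**
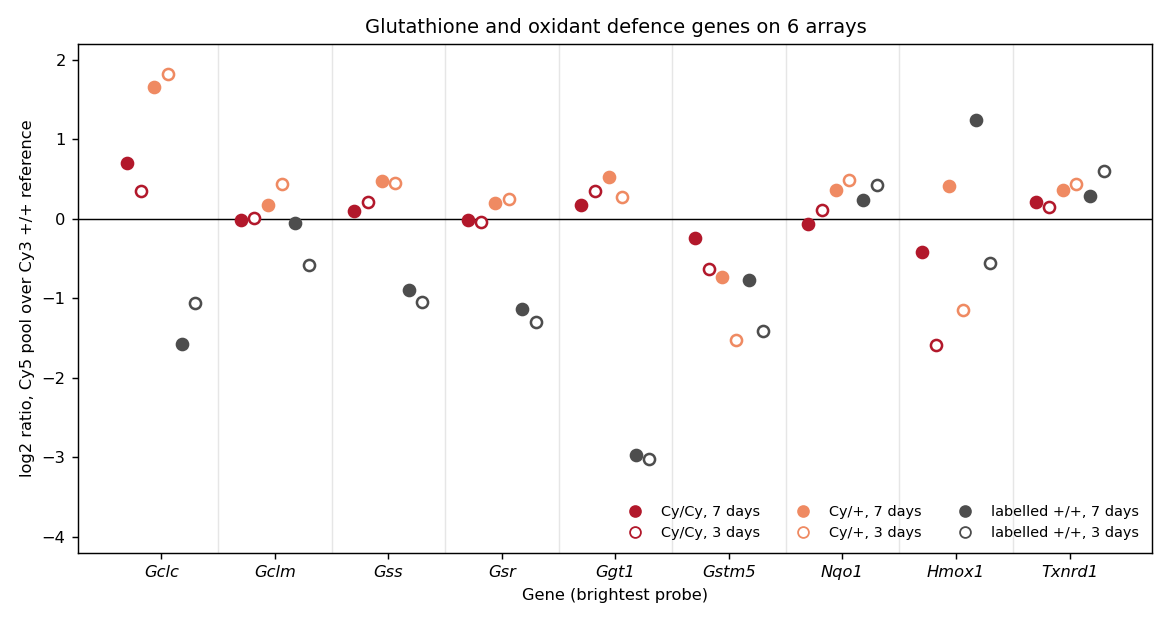
Log2 ratio of the Cy5 pool over the Cy3 +/+ reference for 9 genes (1 probe each, the brightest) on the 6 arrays, with 7 days as filled and 3 days as open circles. Gclc on the Cy/+ arrays lies at 1.66 and 1.82, above the Cy/Cy values of 0.70 and 0.35, while Ggt1 on the arrays labelled +/+ lies at -2.97 and -3.02.

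Over all probes 4.63% passed as higher in Cy/+ and 0.00647% in Cy/Cy. Of 8 proximal tubule markers 4 passed as higher in Cy/+ and 0 in Cy/Cy (limma, 4 at an unadjusted p under 0.05). Their summed signal was 197980 in Cy/Cy, 203000 in Cy/+ and 148640 in the reference at 7 days, and 178930, 183610 and 151270 at 3 days. Their median ratio was 0.27 at 7 days and 0.24 at 3 days in Cy/Cy, and 0.58 and 0.28 in Cy/+. The highest of the 8 markers reached 1.16 at 7 days and 0.97 at 3 days in Cy/+, below Gclc on the same arrays, and 0.88 and 0.83 in Cy/Cy, above Gclc. The other way in Cy/+ went 3 of the 8, with Slc34a1 at -0.19, Slc5a2 at -0.24 and Slc22a6 at -0.33 (adjusted p = 0.05 to 0.351, not called). Their part in the result was not tested. Among the probes with a gene name whose ratios on the 4 mutant arrays lay nearest to Gclc were LOC689029 (Euclidean distance 0.275) and LOC246266 (0.398), whose accession now belongs to Aspg.

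The other steps of synthesis and recycling follow. Gclm, the modifier subunit of glutamate-cysteine ligase, had ratios of -0.01 at 7 days and 0.01 at 3 days in Cy/Cy, and 0.18 and 0.44 in Cy/+. Its probe, with 15% G and C, was well above background on 3 of 6 arrays in each channel, and by the scanner software's log ratio its Cy/+ values were 1.42 and 1.32 at 7 and 3 days. The size of its ratio in Cy/+ is therefore not settled. Gss, glutathione synthetase, had 0.10 and 0.21 in Cy/Cy and 0.48 and 0.45 in Cy/+ at 7 and 3 days. Its Cy/+ values lay above both Cy/Cy values. Gsr, glutathione reductase, had -0.01 and -0.04 in Cy/Cy, and 0.21 and 0.25 in Cy/+. In the Cy/Cy test the adjusted p was 0.998 for Gclm, 0.609 for Gss and 0.934 for Gsr (limma), with intervals of -0.21 to 0.21, -0.02 to 0.33 and -0.19 to 0.15.

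Ggt1, the gamma-glutamyltransferase of the brush border, had a signal of 20715 in Cy/Cy, 25445 in Cy/+ and 18017 in the reference at 7 days, and 22975, 23665 and 18717 at 3 days. The mean ratio in Cy/Cy was 0.27 ± 0.09 (SE, n = 2), with an interval of 0.05 to 0.49 and an adjusted p of 0.536 in the limma fit. Both mutant genotypes, always in Cy5, lay above the reference at both ages. On the Cy/+ arrays the ratio was 0.52 at 7 days and 0.28 at 3 days. Slc7a11, the cystine importer that feeds synthesis, did not pass the filter on dim probes. Its probe was well above background in Cy3 on 0 of 6 arrays and in Cy5 on 1, the 7-day array labelled +/+.

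Gstm5, a mu-class glutathione transferase, was lower than the reference on all 6 arrays by the probe of its RefSeq transcript under loess, but 0.24 on the 7-day Cy/Cy array and -0.15 on the 7-day Cy/+ array with median centring. Its 3 probes are shown because they differ in size of response and in direction along the chromosome. The transcript probe lies at chr2:203420315-203420465 (rn3), in ascending order. The other 2 come from a cDNA clone sequence and lie at chr2:203421320-203421630 and chr2:203420991-203421219, in descending order. Each spans more than its 60 bases, and gene models of rn3 were not used here. The clone probes run against the transcript probe. In build GRCr8 the Gstm5 promoter lies on the + strand, the ascending direction of the transcript probe and not of the clone probes. Which strand's RNA the clone probes read was not tested.
Gstm5 transcript probe: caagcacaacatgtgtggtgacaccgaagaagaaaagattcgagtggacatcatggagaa
Gstm5 clone probe, higher coordinates: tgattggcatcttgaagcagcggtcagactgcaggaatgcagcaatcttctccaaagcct
Gstm5 clone probe, lower coordinates: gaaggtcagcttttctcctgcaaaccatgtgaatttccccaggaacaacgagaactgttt
The transcript probe had a signal of 2935 in Cy/Cy and 2089 in Cy/+ at 7 days, against 3464 in the reference. At 3 days it had 4302 in Cy/Cy and 2525 in Cy/+, against 6976 in the reference. The order of the pools was thus the same at both ages, with Cy/+ lowest and the reference highest.

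The Gstm5 ratio was -0.24 at 7 days and -0.64 at 3 days in Cy/Cy, and -0.73 and -1.53 in Cy/+. In Cy/Cy the mean was -0.44 ± 0.19 (SE, n = 2), with an interval of -0.88 to 0.01, and did not pass (limma, adjusted p = 0.584). With median centring it was -0.001. Cy/Cy minus Cy/+ was 0.49 at 7 days and 0.89 at 3 days. Gstm5 too was picked from the Cy/+ arrays, on which the ratios of all probes were wider than in Cy/Cy. The 2 clone probes had means of -0.29 and -0.15 in Cy/Cy and of -0.62 and -0.44 in Cy/+. Thus all 3 probes had lower means in Cy/+ than in Cy/Cy. The clone probes run opposite to the direction of the gene, so they are not counted as repeats of the transcript probe. The clone probe at the lower coordinates was not well above background in Cy5 on the 3-day Cy/+ array. By the scanner software's log ratio it had -1.15 at 7 days and -1.93 at 3 days in Cy/+, beyond the transcript probe at -0.75 and -1.53, so the probes have no settled order by size. Mu-class transferases are alike in sequence, and cross-hybridisation between them was not tested.

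**Figure D2:**
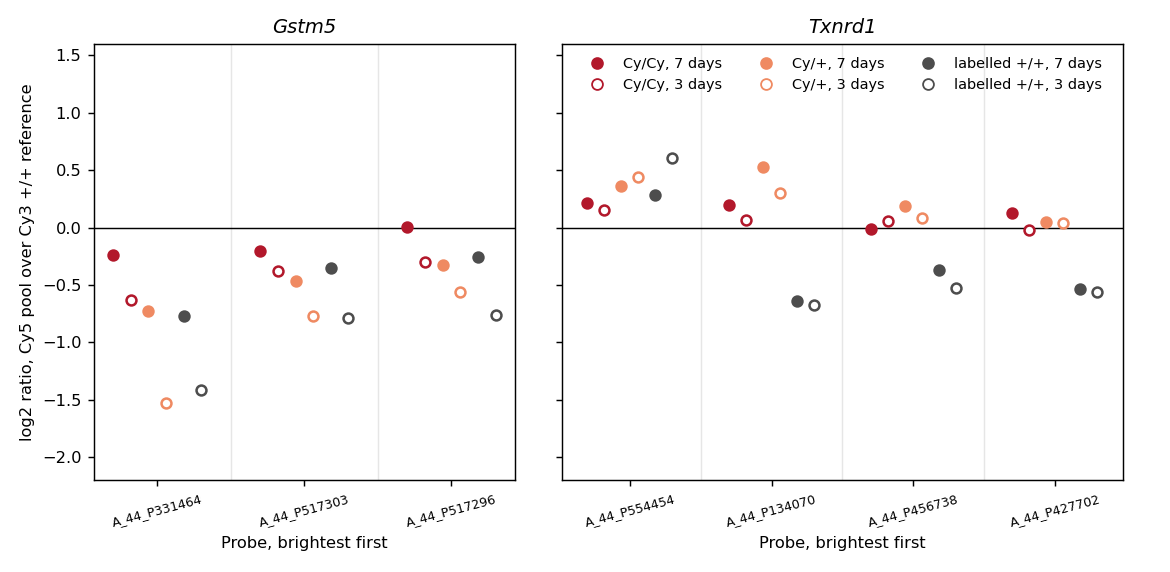
Log2 ratio of the Cy5 pool over the +/+ reference for the 3 probes of Gstm5 and the 4 probes of Txnrd1 on 6 arrays, with 7 days filled and 3 days open. The Gstm5 transcript probe and the first clone probe lie at -1.53 and -0.77 in Cy/+ at 3 days, where the last was not well above background in Cy5, and the first Txnrd1 probe lies above 0 on the arrays labelled +/+ while the other 3 lie below.

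Over all probes 3.3% passed as lower in Cy/+ and 0% in Cy/Cy. Of 6 erythroid markers 3 were measured (Hbb, Alas2 and Slc4a1), of which 3 passed as lower in Cy/+ and 0 in Cy/Cy (limma, 3 at an unadjusted p under 0.05). Their summed signal was 12198 in Cy/Cy, 8796 in Cy/+ and 16230 in the reference at 7 days. At 3 days it was 17063 in Cy/Cy, 11220 in Cy/+ and 25761 in the reference, the same order of pools as for Gstm5. The median ratio of the 3 was -0.21 and -0.51 in Cy/Cy and -0.82 and -1.201 in Cy/+ at 7 and 3 days. Slc4a1, the anion exchanger of red cells, was among the 3 named probes nearest to Gstm5 over the 4 mutant arrays (Euclidean distance 0.363), after RGD1561831_predicted (0.251) and RGD1310958_predicted (0.358). On the arrays labelled +/+ the 2 readouts parted, with Gstm5 at -0.77 and -1.41 and the erythroid median at 1.34 and 1.201 at 7 and 3 days. The part of erythroid RNA in the Gstm5 result was not tested.

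**Figure D3:**
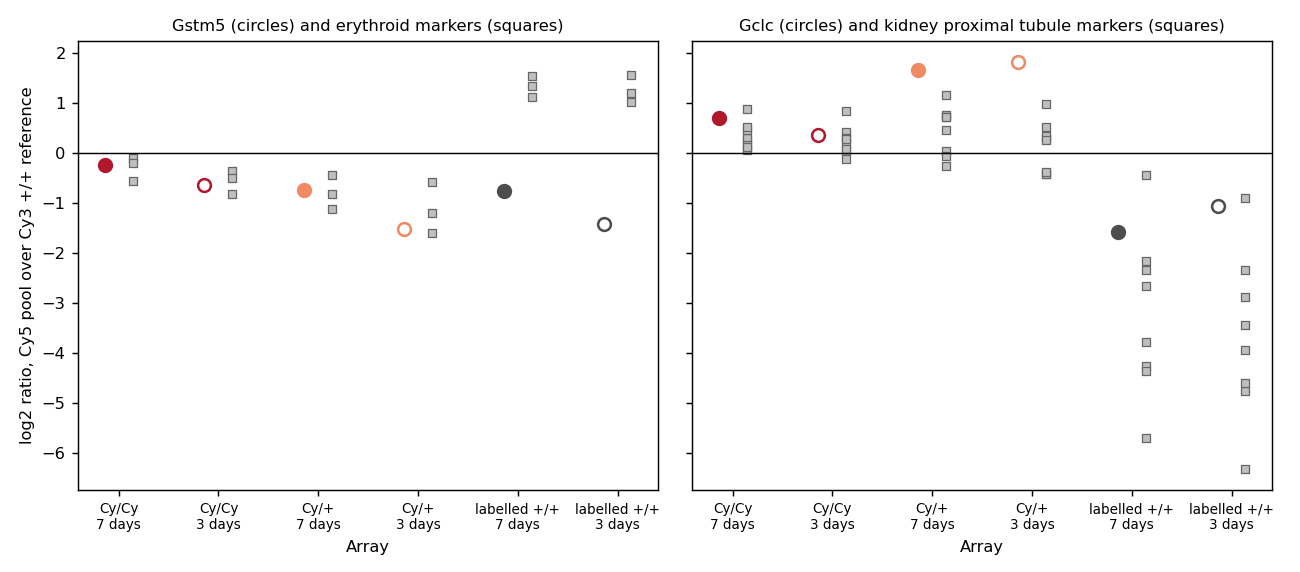
Log2 ratios on the 6 arrays of Gstm5 with the 3 measured erythroid markers (left) and of Gclc with 8 proximal tubule markers (right), members as circles and markers as grey squares. Gstm5 lies within the range of the erythroid markers on the 4 mutant arrays and below it on the arrays labelled +/+, and Gclc on the Cy/+ arrays lies above every proximal tubule marker.

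Hmox1 encodes heme oxygenase, which breaks heme down to biliverdin, iron and carbon monoxide. Its probe, shown because it was printed at 10 spots per array and so measures spot error, maps to chr19:13974162-13974221 (rn3), in ascending order.
Hmox1: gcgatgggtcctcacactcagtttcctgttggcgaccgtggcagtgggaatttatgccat
The ratio was -0.41 at 7 days and -1.59 at 3 days in Cy/Cy, and 0.41 and -1.14 in Cy/+. The standard deviation between usable spots of an array was 0.018 to 0.045, so the arrays differed by more than their spots did. On the 3-day Cy/Cy array 0.00647% of the 30908 probes lay lower than Hmox1. The mean in Cy/Cy was -1.002 ± 0.39 (SE, n = 2), a 2.002-fold lower level than in the reference, with an interval of -1.92 to -0.08. It did not pass in the limma fit (adjusted p = 0.551). With age as a block the adjusted p was 0.0345.

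Of all member probes Hmox1 had the largest difference between ages in the reference. The reference signal was 1234 at 7 days and 3326 at 3 days, and the 2 arrays of an age gave like values, 1176 and 1294 at 7 days and 3163 and 3498 at 3 days. Cy/Cy had 884 at 7 days and 1049 at 3 days, and Cy/+ had 1719 and 1584. The reference at 7 days thus lay far below that at 3 days, which was not so of either mutant pool. On the arrays labelled +/+ the Hmox1 ratio was likewise higher at 7 days, 1.24, than at 3 days, -0.56.

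**Figure D4:**
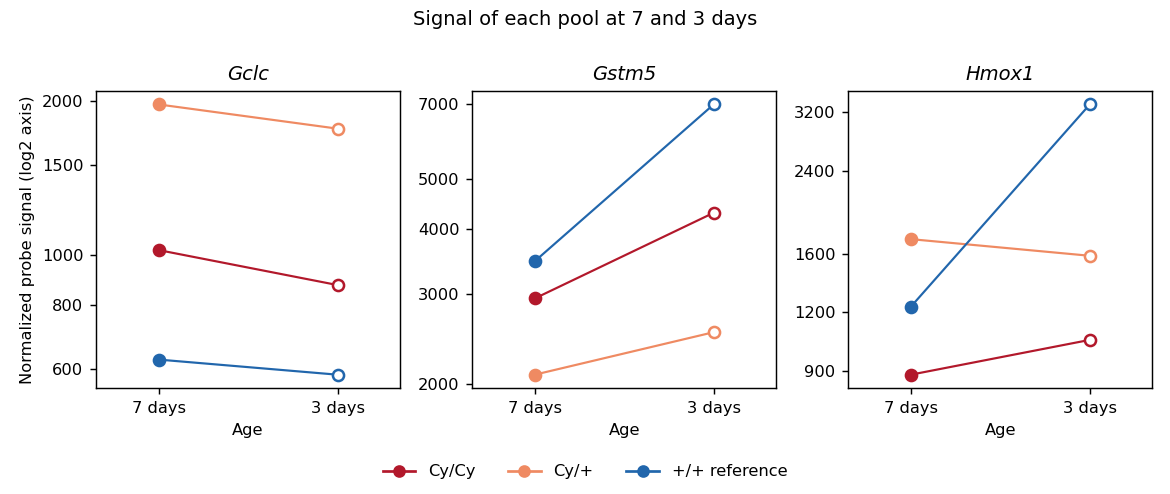
Normalized signal (log2 axis) of Gclc, Gstm5 and Hmox1 in the Cy/Cy, Cy/+ and +/+ reference pools at 7 and 3 days, each point 1 pool and the reference the mean of 2 hybridisations. The reference of Hmox1 lies at 1234 and 3326 and that of Gstm5 at 3464 and 6976, whereas the Gclc reference lies at 626 and 585. The 585 is the mean, on the log2 scale, of 686 on the Cy/Cy array and 499 on the Cy/+ array.

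Nqo1, a quinone reductase that is a classical Nrf2 target, had ratios of -0.06 at 7 days and 0.12 at 3 days in Cy/Cy, and 0.36 and 0.49 in Cy/+. By the scanner software's log ratio the Cy/+ values were 0.84 and 0.97. Its mean in Cy/Cy was 0.03, with an interval of -0.17 to 0.22 and an adjusted p of 0.937 (limma). Txnrd1 encodes cytosolic thioredoxin reductase and had 4 probes. The brightest gave 0.22 and 0.15 in Cy/Cy and 0.37 and 0.44 in Cy/+ at 7 and 3 days. The other 3 had means of 0.02 to 0.13 in Cy/Cy and 0.04 to 0.42 in Cy/+. The probe with the lowest Cy/+ mean, 0.04, runs against the other 3 along the chromosome. In the Cy/Cy test the adjusted p of the 4 probes was 0.561 to 0.935.

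Over the 9 measured genes the median ratio was 0.03 in Cy/Cy and 0.40 in Cy/+, against 0.005 for all probes in both comparisons. In Cy/Cy 6 genes lay above 0 and 3 below, and in Cy/+ 7 lay above and 2, Gstm5 and Hmox1, below. The Hmox1 mean in Cy/+, -0.37, turned to 0.085 with median centring and to 0.41 without the 3-day array. With median centring the Cy/+ means of Gss (1.07), Gsr (0.64), Ggt1 (1.15) and Txnrd1 (0.90) were larger too, and that of Gclm (0.082) was smaller. In the Cy/+ comparison 7.93% of 30914 probes passed (4.63% higher and 3.3% lower, and 28.8% at an unadjusted p under 0.05), a share against which nothing is read for genes chosen from those arrays. Both mutant genotypes were set against pools of the same +/+ label, so their ratios share that reference.

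Of 121 further genes of the pathway, in 8 lists, 111 were measured. They were tested in the same fits, and the lists were drawn up with earlier results of these data known. In Cy/Cy 0 of the 111 passed (limma), beside 0.00647% of all probes. At an unadjusted p under 0.05 there were 13, or 11.7%, beside 8.65% of all probes, and the median was 0.002. The largest difference of each list in Cy/Cy was 0.64 for Tkt (transketolase of the pentose phosphate pathway), 0.46 for Slc7a9 (cystine transporter of the brush border), 0.37 for Gsta2 and 0.33 for Sod3. In the remaining lists it was 0.27 for Nox4, -0.24 for Sqstm1, -0.17 for Sesn1 and -0.15 for Atf4. The adjusted p of these 8 genes was 0.313 to 0.653.

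In Cy/+ 10 of the 111 passed, 6 higher and 4 lower, a share of 9.01% beside 7.93% of all probes. Among the precursor supply genes Slc7a9 rose by 0.58 (0.64 at 7 days and 0.52 at 3 days), and Cth, which makes cysteine from cystathionine, rose by 0.51 (0.67 and 0.35). Ggt7, a relative of Ggt1, fell to -0.37. The list's other 15 measured genes did not pass. The other Nrf2 targets had 5 calls among 23 genes, 4 higher and 1 lower. Me1, malic enzyme, which makes NADPH, rose by 0.95 ± 0.09 (SE, n = 2, adjusted p = 0.00798 in limma), and Blvra, biliverdin reductase, rose by 0.69 ± 0.07 (adjusted p = 0.00982). Akr1b8 rose by 0.54 and Tkt, named here outside the rule for naming genes, by 0.51, and Abcc1, an exporter of glutathione conjugates, fell to -0.55.

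Of the Nrf2 regulators only Mafg, a small Maf partner of Nrf2, passed in Cy/+, at -0.43, whereas Nfe2l2 had -0.13 at 7 days and -0.19 at 3 days. Among 18 glutathione transferases Gstm7 passed, at -0.39. With median centring Mafg was 0.012, Gstm7 0.044 and Abcc1 -0.089, and none of the 3 passed (adjusted p = 0.574 to 0.943). No gene passed among 16 genes of peroxide and superoxide removal, 14 of the thioredoxin and glutaredoxin system, 7 of the amino acid response or 6 oxidant sources. Their extremes were -0.48 for Gpx3, 0.30 for Msra, -0.32 for Ddit3 and 0.42 for Xdh (adjusted p = 0.0695 to 0.18). Among all 30914 probes the 2450 Cy/+ calls became 4879 with age as a block. They became 870 with ratios scaled between arrays and 0 with the scanner software's own log ratio. The list genes' count of 10 moved the same way, to 24 with age as a block, 3 with scaling and 0 with the scanner ratio (27 at an unadjusted p under 0.05). The list count also fell without the 3-day Cy/+ array or without either Cy/Cy array.

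**Figure D5:**
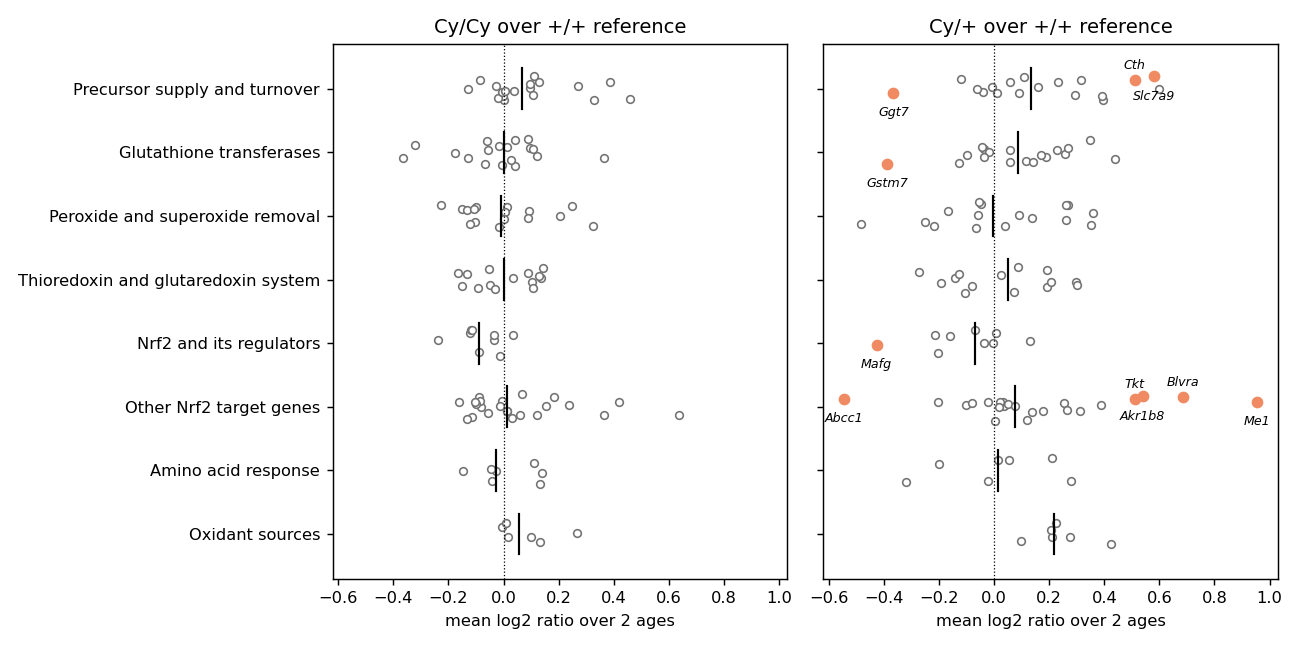
Mean log2 ratio over both ages of 111 further pathway genes in 8 lists, in Cy/Cy (left) and Cy/+ (right) over the +/+ reference, with a black bar at each list's median. Filled circles passed the test: none in Cy/Cy, and 10 in Cy/+, from Abcc1 at -0.55 to Me1 at 0.95.

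The arrays labelled +/+ differed from their reference in most members. Of the 14 member probes 12 passed (limma, adjusted p under 0.05), 2 higher and 10 lower, where 45% of all probes did (26.6% higher and 18.4% lower, and 53% at an unadjusted p under 0.05). Ggt1 had ratios of -2.97 at 7 days and -3.02 at 3 days and was 7.97-fold lower than in the reference (adjusted p = 7.11e-06). Gclc had -1.58 and -1.06, Gsr -1.13 and -1.30, and Gss -0.89 and -1.05. Gstm5 had -0.77 and -1.41, and without the 3-day array its adjusted p was 0.0557. Nqo1 was higher (0.23 and 0.43), as was the brightest Txnrd1 probe (0.28 and 0.61), while the other 3 Txnrd1 probes were lower, with means of -0.66 to -0.44. The Nqo1 call was lost with any 1 mutant array or the 3-day array labelled +/+ left out, at an adjusted p of 0.0642 to 0.155. Gclm was well above background in Cy5 on neither array. Proximal tubule markers were lower on the same arrays, and their part in the fall of Ggt1 and Gclc was not tested.

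Between ages, the Cy/Cy, Cy/+ and reference pools were compared at 7 and 3 days with the pool type as a block. All arrays of an age lay on 1 slide, so age and slide cannot be told apart. The test called 2 of the 14 member probes and 9.88% of 30909 probes (5.29% higher and 4.59% lower). At an unadjusted p under 0.05 the shares were 5 of 14 and 31.4%. Gclm was lower at 7 days by a log2 difference of -0.33 ± 0.07 (SE, n = 3 pools per age, limma adjusted p = 0.0433), though its signal stayed near background, and the call was lost without the reference pools (0.222) or the Cy/Cy pools (0.137). The opposite-running Txnrd1 probe was higher at 7 days by 0.43 ± 0.07 (adjusted p = 0.0249), and the other 3 Txnrd1 probes did not pass. Over the array 0 probes passed in limma when the reference pools were left out (4778 at an unadjusted p under 0.05), and 104 did without the Cy/Cy pools.

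Gstm5 was at the threshold, with a difference of -0.61 ± 0.14 (limma, adjusted p = 0.05, not called). Its difference was -0.55 in Cy/Cy, -0.27 in Cy/+ and -1.01 in the reference. The 2 clone probes went the other way, with 0.13 and 0.09 (adjusted p = 0.314 and 0.499). Erythroid markers were lower at 7 days too, with 2 of 3 called and a median of -0.50, beside 4.59% of all probes called lower. Hmox1 had -0.25 in Cy/Cy, 0.12 in Cy/+ and -1.43 in the reference (adjusted p = 0.259). Of 7 macrophage markers 5 passed as lower at 7 days, with a median of -0.57, beside the same 4.59%. Their summed signal at 7 and 3 days was 4974 and 6881 in Cy/Cy, 5448 and 10274 in Cy/+, and 5096 and 7410 in the reference. The macrophage signal thus fell most in Cy/+, unlike Hmox1, and the part of macrophages was not tested. Gclc differed between ages by 0.16 ± 0.07 (adjusted p = 0.168), with all 3 pools higher at 7 days.

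Of the 111 further genes 14 passed between ages, 5 higher at 7 days and 9 lower. That was 12.6%, beside 9.88% of all probes (5.29% higher and 4.59% lower). Sqstm1, an adaptor that binds Keap1, was higher by 0.73, Sesn3 by 0.51, the glutamate carrier Slc1a1 by 0.45, Prdx1 by 0.41 and Blvra by 0.40. Abcc2 fell by 0.81, Xdh by 0.78, Trib3 by 0.70, Mafk by 0.69, the dipeptidase Dpep1 by 0.67 and Mgst1 by 0.60. Osgin1 (-0.48), Asns (-0.42) and Gpx1 (-0.35) were the other calls. Without the reference pools 0 passed in limma (23 at an unadjusted p under 0.05), without the Cy/Cy pools 1 did, and without the Cy/+ pools 20 did. The calls over all probes moved the same way in these settings, as given at the end.

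RefSeq promoters (build GRCr8, 250 bases before to 50 after the start) were searched on both strands for TGACNNNGC, the core of the antioxidant response element. Of 33469 promoters 12.1% held it and 0.89% held it more than once. Of the 10 genes 8 had an entry, Txnrd1 with 2. Matches stood in Gstm5, Gclm and 1 of the Txnrd1 promoters. They are shown with 10 bases on each side because Nrf2 is known to act through this element, and capitals mark the match.
Gstm5, 113 bases before the start, chr2:198219646-198219674, + strand: caaggccaagTGACCACGCggagggcggg
Gstm5, 53 bases before the start, chr2:198219706-198219734, + strand: tcagtcgcgtTGACCCCGCccacagcgtc
Gclm, 172 bases before the start, chr2:213031953-213031981, + strand: tgcggtttctGCTTAGTCAttgtcttcca
Txnrd1, 78 bases before the start, chr7:22755964-22755992, - strand: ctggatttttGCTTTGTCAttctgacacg
The matches of Gclm and Txnrd1 read on the reverse strand of the promoter. The letters were in none of the windows of Gclc, Gss, Ggt1, Nqo1 and Slc7a11. Sequence further from the start was not searched, so a miss does not show that a gene lacks the element.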

How the data were processed

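Pooled kidney RNA was hybridised to 6 Agilent arrays, the named pool in Cy5 and an age-matched +/+ pool in Cy3, without swapped dyes. File headers (Agilent Feature Extraction 9.5.1.1, coordinates of rn3) were followed where the series text differs on product and software. Spot signals are intensity values as the scanner software wrote them, per the file headers. The deposited log10 ratio, Cy5 over Cy3, was also the content of the series table (largest difference 0), whose column medians were -0.0159 on the 3-day array labelled +/+ and 0 on the other 5.

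With R 4.3.3 and limma 3.58.1 the mean signals were corrected by normexp (offset 50) and normalized by loess, with control spots and 125 to 192 flagged spots per array at weight 0. From 66.8% to 74.8% of spots in Cy5 and 65% to 70% in Cy3 were well above background. The precision is set by the few arrays. A probe was kept if well above background in a channel on 2 or more arrays (30917 of 41012 probes). Genotype means were tested against 0 over the 4 mutant arrays (2 residual degrees of freedom, prior 4.63), so the spread of the reference itself is not included. The arrays labelled +/+ entered a fit of all 6 arrays (3 residual degrees of freedom). Ages were compared on Aquantile-normalized single channels over 3 pools per age, where the reference values come from the same arrays as the mutant ones. P-values were adjusted by Benjamini-Hochberg over all probes (threshold 0.05). Each age lay on 1 slide and each genotype at 1 position, so genotype and position cannot be told apart.

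On simulated data known changes were recovered. False calls were near the nominal level when variances followed the fitted prior and above it when fitted variances were used, so calls near the threshold may be too many. Members and lists were chosen with earlier results of these data known. The text names all member probes, list genes that passed (up to 4 per list and comparison, by size, otherwise the largest difference of the list) and the 3 named probes nearest to Gclc and Gstm5, of which 1 is not reported here. A gene with several probes is given by its brightest, by mean intensity over all 6 arrays. Symbols of 9 members matched by accession in a RefSeq table of GRCr8, which also gave the promoters. Ggt7 and Gstm7 are Ggtl3 and Gstm3 in the files. Alternatives changed the background correction, centring, scaling, filter and probe choice, blocked by age, or left out an array or pool type. A filter on the mutant arrays alone was added after seeing the data.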

Additional observations from a re-analysis of the deposited data

Results flagged for a closer look

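Hmox1 lay above its reference on 1 age's array and below it on the other in Cy/+, at 0.41 at 7 days and -1.14 at 3 days, a difference of 1.55 in log2. It did the same on the arrays labelled +/+, at 1.24 and -0.56, a difference of 1.80. Gclm in Cy/Cy (-0.01 and 0.01, difference -0.022), Nqo1 in Cy/Cy (-0.06 and 0.12, difference -0.181) and Slc7a11 in Cy/+ (-0.002 and 0.29, difference -0.292) also had opposite signs at 7 and 3 days. Each rests on 1 array per age and the differences were not tested. Slc7a11 was not well above background on those arrays.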

How the results depend on the processing

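With median centring in place of loess, the median of all probes moved by 0.163 to 0.184, 13257 probes passed in Cy/Cy (2 in the reported fit), 15383 passed in Cy/+ (2450), and 80.3% of the Cy/+ calls were higher (58.4%). With the scanner software's log ratio 0 probes passed in Cy/Cy and 0 in Cy/+ by limma, with 2605 and 7792 at an unadjusted p under 0.05. On the arrays labelled +/+ 59.1% of calls were higher, against 75.1% with median centring and 37.5% with the scanner ratio, which lowered the median by 0.241. In Cy/Cy 0 passed without background correction (2826 unadjusted) or with the smaller offset (2821), and 5 with scaling between arrays. Scaling left 870 calls in Cy/+ and 8333 on the arrays labelled +/+ (13918). Age as a replicate block gave 15 in Cy/Cy and 4879 in Cy/+. Equal replicate numbers mean equal age, and age and slide cannot be told apart. Leaving out 1 array gave 0 to 72 in Cy/Cy, 811 to 3249 in Cy/+ and 11016 to 15019 on the arrays labelled +/+, a lone array being assumed to vary like the others. Leaving out a pool type gave 0, 104 or 6038 between ages (3054). The causes were not tested.

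With median centring these changed sign: in Cy/Cy Gclm -0.310, Nqo1 -0.119, Gsr 0.316, Sesn1 0.178, Sqstm1 0.239 and Atf4 0.467, in Cy/+ Hmox1 0.085, Gstm7 0.044, Gpx3 0.250 and Mafg 0.012, and on the arrays labelled +/+ Sqstm1 0.066. Without background correction Gclm in Cy/Cy was -0.001 and Nqo1 between ages -0.024. With 1 array left out Gclm ran from -0.010 to 0.012 and Nqo1 from -0.064 to 0.117 in Cy/Cy, and Hmox1 from -1.143 to 0.410 in Cy/+ and from -0.559 to 1.242 on the arrays labelled +/+. Between ages Nqo1 was -0.039 without the reference and -0.012 without the Cy/Cy pools, where Gss was 0.015 and Ggt1 0.025. With median centring Gclc (0.828, adjusted p = 0.000997), Gss, Gsr, Ggt1 and Txnrd1 passed in Cy/Cy in limma, where 13257 of 30916 probes did. Of 1287 values of single genes under alternatives, 21 turned sign, all given above.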
